A study of Mus musculus with 6 samples.

Results

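The histone genes described here are the protein-coding genes of the deposited table whose names mark them as members of the H1, H2A, H2B, H3 or H4 histone gene clusters (*Hist1h*, *Hist2h*, *Hist3h* and *Hist4h* names, and newer names such as *H1f0*). They number 68 of 54532 genes: 7 of class H1, 18 of H2A, 18 of H2B, 12 of H3 and 13 of H4. A further 3 genes with such names are annotated as pseudogenes and were not counted. RNA-seq compared LSK cells (lineage-negative, Sca1- and c-Kit-positive bone marrow cells, the fraction that holds hematopoietic stem and progenitor cells) from *Myh9* fl/fl mice that carry *Mx1-cre* (cKO) with LSK cells from littermates without Cre (CTRL), which carry the same floxed *Myh9* alleles. Each group had 3 libraries, on a C57BL/6 background, from mice genotyped at 4 to 5 weeks of age. All mice received 5 mg/kg poly I:C, an inducer of interferon that switches on *Mx1-cre*, in 2 doses by the sample descriptions, and 100000 LSKs for each library were sorted 4 days after the first dose. *Mx1-cre* is not limited to blood cells, and how many mice gave each library is not stated, so p-values measure the spread between libraries.

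Replication-dependent histone genes supply the proteins around which new DNA is wound in S phase. Proteins of classes H2A, H2B, H3 and H4 form the core of the nucleosome, while H1 proteins bind the linker DNA between nucleosomes. Their genes are many near copies that lie in clusters and mostly lack introns. Their mRNAs are unusual because they end in a short stem-loop instead of a poly(A) tail. The stem-loop is bound by SLBP, and the transcript is cut just after it by a complex that holds the U7 snRNP. The library kit named by the submitters selects RNA with a poly(A) tail, so the values below measure the histone transcripts that this selection let through, not the whole pool of histone mRNA.

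The sequence that stands in for a poly(A) tail was found in 46 of the 68 genes, at 21 to 58 bases (median 31) after the stop codon in GENCODE M21 transcripts (GRCm38). The histone stem-loop, a stem of 6 bases that allows C or T (paired with G or A) in the middle and any loop of 4 bases, was searched for on the transcript strand within 100 bases after the stop, and 58 of 21951 protein-coding genes searched (0.264%) hold the pattern there. Of the 22 genes without it, 15 have a gene model that ends within 20 bases of the stop. There were 8 different stem-loop sequences of 16 bases, the commonest in 26 genes. The stem-loops of 7 of the 8 genes that changed, described below, are shown with 5 bases on each side, the stem-loop itself in capitals and T written for U.
Hist1h1c: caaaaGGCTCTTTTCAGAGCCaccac
Hist1h2ac: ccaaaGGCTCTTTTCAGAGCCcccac
Hist1h2bg: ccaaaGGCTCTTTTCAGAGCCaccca
Hist1h2bj: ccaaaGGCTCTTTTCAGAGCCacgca
Hist1h3c: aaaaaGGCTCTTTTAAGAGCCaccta
Hist1h3g: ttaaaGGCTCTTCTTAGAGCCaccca
Hist1h4i: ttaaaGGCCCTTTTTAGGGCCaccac

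The copies in *Hist1h1c*, *Hist1h2ac*, *Hist1h2bg* and *Hist1h2bj* are letter for letter the same, and the last of these genes was higher and the others were lower in cKO LSKs. *Hist1h3c* and *Hist1h3g* have the same stem with other loops, *Hist1h4i* has another stem and another loop, and no H4 gene had the commonest sequence. The eighth gene that changed, *Hist1h2bn*, has a model that ends at its stop codon, so no stem-loop could be looked for in it. *H1f0* encodes the replacement linker histone H1.0, which is made outside S phase from a polyadenylated mRNA. It falls under the naming rule, and no stem-loop was found in it.

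Promoter sequences of RefSeq (GRCm38.p6), from 250 bases before to 50 bases after the start site, were at hand for 63 of the 68 genes. CCAAT (or ATTGG on the other strand) was in 53 of the 63 and in 37.4% of all 32851 promoters. The octamer ATTTGCAT (or ATGCAAAT), the letters bound by POU domain factors, was in 13 of the 63 and in 1.74% of all promoters: 7 were of class H2A and 6 of class H2B. AAACACA (or TGTGTTT), known as the H1 box, was in 5 of 7 H1 promoters and in 7.18% of all promoters. TATAAA (or TTTATA) was in 35 of the 63 and in 13.6% of all promoters, and CCAAT was in 3 of 12 H4 promoters. Promoters of 3 genes called below, of classes H1, H2B and H4, are shown with these letters in capitals on either strand. None of these words contains another. The *Hist1h2bg* window also covers most of the promoter of *Hist1h2ae*, which starts on the other strand.
Hist1h1c (chr13:23738557-23738856, plus strand): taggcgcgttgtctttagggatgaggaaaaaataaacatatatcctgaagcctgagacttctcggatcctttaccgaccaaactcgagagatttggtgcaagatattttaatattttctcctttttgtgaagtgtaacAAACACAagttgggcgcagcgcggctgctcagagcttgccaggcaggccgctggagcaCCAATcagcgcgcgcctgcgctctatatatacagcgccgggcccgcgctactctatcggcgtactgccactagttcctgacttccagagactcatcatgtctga
Hist1h2bg (chr13:23571150-23571449, plus strand): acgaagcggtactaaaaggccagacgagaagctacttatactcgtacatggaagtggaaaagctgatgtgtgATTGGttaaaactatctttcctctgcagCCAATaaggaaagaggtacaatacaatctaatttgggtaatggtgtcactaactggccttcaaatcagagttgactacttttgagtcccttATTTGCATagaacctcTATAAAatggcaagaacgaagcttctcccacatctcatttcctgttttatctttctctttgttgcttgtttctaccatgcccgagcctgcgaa
Hist1h4i (chr13:22041313-22041612, minus strand): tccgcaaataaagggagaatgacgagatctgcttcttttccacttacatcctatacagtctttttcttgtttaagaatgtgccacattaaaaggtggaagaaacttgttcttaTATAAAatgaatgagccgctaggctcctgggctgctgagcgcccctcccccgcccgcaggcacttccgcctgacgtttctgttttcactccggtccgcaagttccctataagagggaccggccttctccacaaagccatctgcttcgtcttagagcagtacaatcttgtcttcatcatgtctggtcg

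Depth and identity were checked first. Libraries held 17571544 to 19894562 reads on genes, recovered from the deposited FPKM values (fragments scaled to gene length and to library size), and the floor of 3 reads is 0.151 to 0.170 FPKM for a gene of 1 kilobase. Histone genes took 0.0271% to 0.0303% of these reads. *Myh9* measured 23.0, 22.6 and 22.0 FPKM in CTRL and 18.4, 19.96 and 17.7 FPKM in cKO libraries (log2 fold change -0.26, adjusted p = 0.00642, limma). Its mean was only 17.1% lower in cKO. Of 5 surface genes of LSK cells, *Flt3* was higher (log2 fold change 0.58) and *Kit* (-0.14) and *Ptprc* (-0.15) lower in cKO. *Kit* was at no less than 21.2 FPKM in any library. *Ly6a*, which encodes Sca1, was not called (-0.09, adjusted p = 0.0833, limma). None of 6 genes of stained lineage proteins reached a mean of 1 FPKM. Other lists moved with genotype, where 19.9% of all genes tested were called higher and 20.6% lower in cKO. Of 9 erythroid genes tested all were higher in cKO, with a summed level of 469 to 473 FPKM in CTRL and 818 to 843 FPKM in cKO libraries, and 4 of 4 megakaryocyte genes were higher (summed level 64.5 to 68.0 against 135 to 139 FPKM). Of 8 neutrophil and monocyte genes 7 were lower (8973 to 9034 against 4626 to 4701 FPKM), and of 6 B and plasma cell genes 3 were higher and 2 lower (summed level 169 to 172 against 162 to 168 FPKM). Of 4 T and NK cell genes 3 were higher and 1 lower (summed level 362 to 373 against 324 to 327 FPKM). *Alas2* and *Slc4a1* were at most 0.108 FPKM, and *Ms4a1* and *Cd8a* at most 0.0277 FPKM. Other T cell genes under a mean of 1 FPKM had separate groups, with *Cd3d* at 0.0554 to 0.281 FPKM in CTRL and 1.29 to 1.63 FPKM in cKO libraries, *Cd3g* at 0.0154 to 0.0694 against 0.575 to 0.800 FPKM, and *Cd4* at 0.274 to 0.349 against 0.706 to 0.911 FPKM. *Cd3e* was listed at 0 in each CTRL library and at 0.183 to 0.282 FPKM in cKO libraries. The part of these cell types in the histone values was not tested.

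Most histone genes were near the lower limit of these libraries. Of the 68 genes, 42 reached a mean of 1 FPKM over the 6 libraries and were tested: 5 of 7 in H1, 9 of 18 in H2A, 11 of 18 in H2B, 7 of 12 in H3 and 10 of 13 in H4. Only 4 of the 42 had a mean of 10 FPKM or more: *Hist1h4i*, *H1f0*, *Hist1h1c* and *Hist1h2bc*. Those 4 made up 56.9% of the summed FPKM of all 68 genes. Of the 38 others, 34 were under 5 FPKM.

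**Figure D1:**
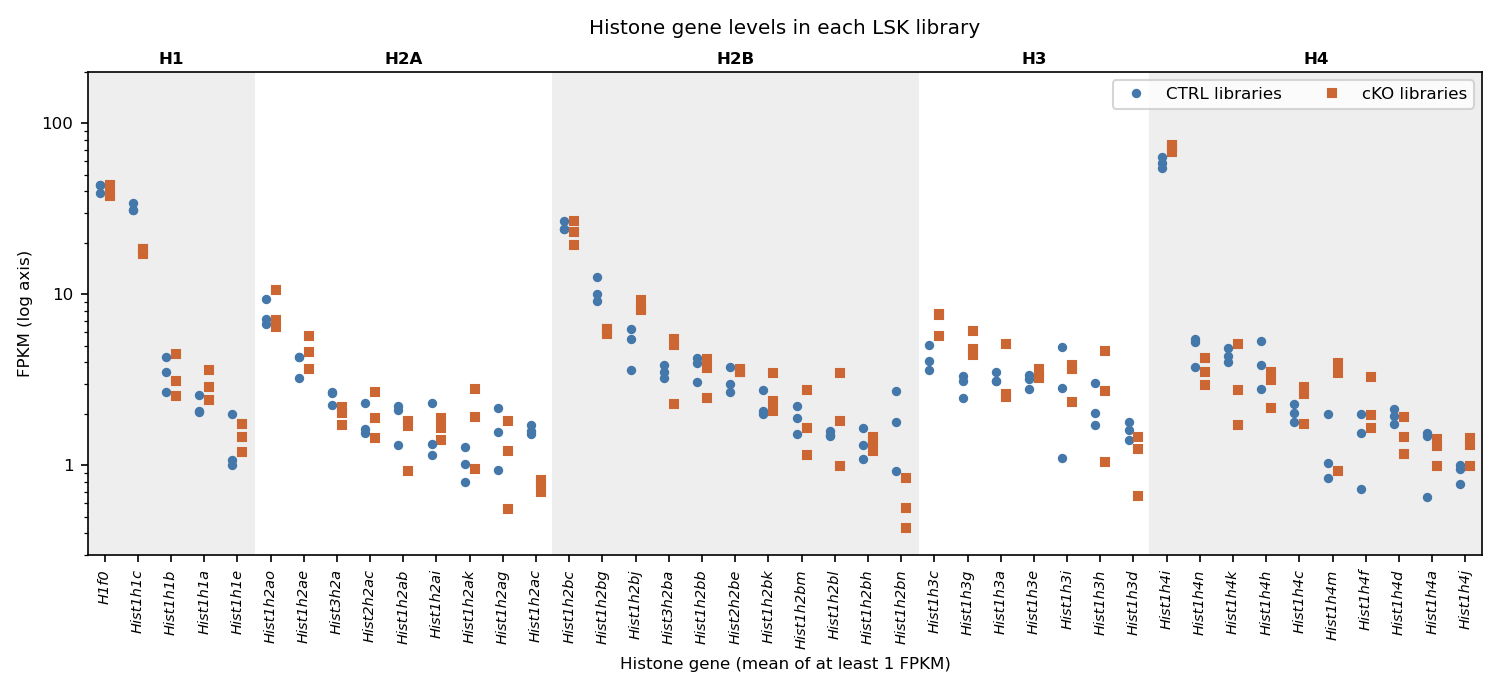
FPKM (log axis) of the 42 histone genes tested, in each of 3 CTRL (circles) and 3 cKO (squares) libraries, ordered by mean level within each class. *Hist1h1c* separates the groups, *H1f0* and *Hist1h2bc* overlap, and most genes lie between 1 and 5 FPKM with overlapping groups.

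The groups differ in *Mx1-cre* itself as well as in the deletion of *Myh9*, and these cannot be told apart here. In the comparison of cKO with CTRL LSKs, 8 of the 42 genes passed an adjusted p under 0.05 (limma on log2(FPKM + 1), two-sided, adjusted over all genes tested). *Hist1h4i*, *Hist1h3g*, *Hist1h3c* and *Hist1h2bj* were higher in cKO, and *Hist1h1c*, *Hist1h2ac*, *Hist1h2bg* and *Hist1h2bn* were lower. This is 19.0% of the histone genes tested, where 40.5% of all 11552 genes tested were called, 19.9% higher and 20.6% lower. The order of these shares turned with a filter at a mean of 5 FPKM, under which 5 of the 8 histone genes still tested (62.5%) and 50.6% of all 7169 genes tested were called. *Hist1h2ac* and *Hist1h2bn* reached a mean of 1 FPKM only through CTRL, where they were higher. The groups did not overlap for 9 histone genes (21.4%), and for 54.0% of all genes tested. Changes in a bulk sample cannot tell fewer cells of a type from less RNA per cell. The median log2 fold change was 0.04 over the 42 histone genes and -0.01 over all genes tested, and 25 of the 42 values were above 0. By class, the medians were -0.05 for H1, 0.03 for H2A, 0.00 for H2B, 0.13 for H3 and 0.09 for H4. Each class held values above and below 0. Only the H3 median stayed on its side of 0 under every alternative, from 0.00023 to 0.61, while those of the other classes changed sign (H1 -0.44 to 0.020, H2A -0.19 to 0.042, H2B -0.12 to 0.094 and H4 -0.021 to 0.28). The lowest H3 value, after removal of the length trend, is close to 0. The highest, with the filter at 5 FPKM, is that of *Hist1h3c* alone, the only H3 gene left.

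**Figure D2:**
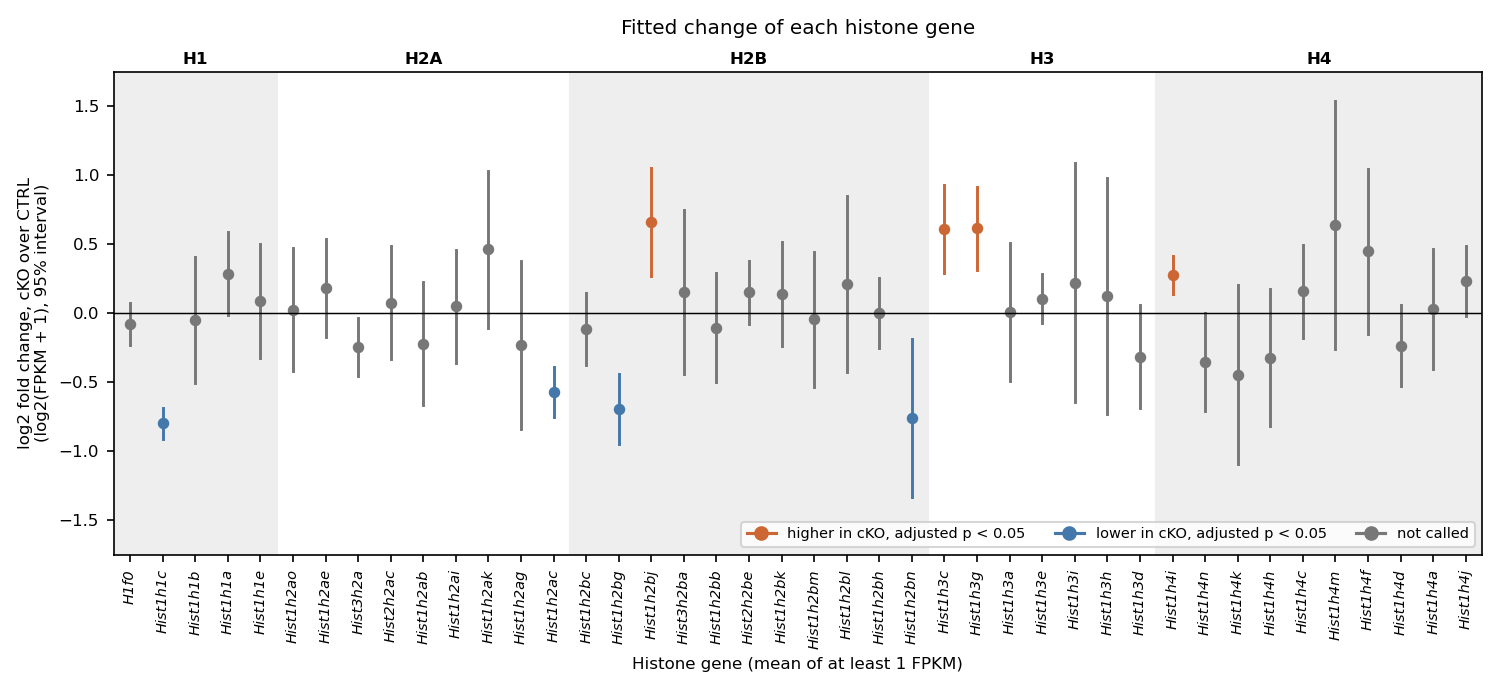
Log2 fold change (cKO over CTRL, on log2(FPKM + 1)) of each of the 42 histone genes with its 95% interval, by class, with called genes in colour. The 4 genes called higher are in H2B, H3 and H4, the 4 called lower in H1, H2A and H2B, and the other 34 lie from -0.44 to 0.64.

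Among the linker histones, *Hist1h1c* (ENSMUSG00000036181, chromosome 13 from 23738808 to 23740367, plus strand), which encodes H1.2, measured 31.3, 31.0 and 34.1 FPKM in CTRL and 18.4, 17.3 and 18.5 FPKM in cKO libraries. Every cKO library was below every CTRL library, and the mean fell from 32.1 ± 1.71 to 18.05 ± 0.680 FPKM (SD, n = 3 each). The log2 fold change was -0.80 (SE 0.05, adjusted p = 6.29e-05, limma), the smallest adjusted p of the histone genes, on 491 to 1021 reads a library. *H1f0* (ENSMUSG00000096210, chromosome 15 from 79028450 to 79030504, plus strand) measured 39.4, 43.5 and 43.4 FPKM in CTRL and 38.6, 43.4 and 37.8 FPKM in cKO libraries. The groups overlapped, and the log2 fold change of -0.08 had a 95% interval from -0.23 to 0.07. *Hist1h1a*, which encodes H1.1, had means of 2.23 and 2.96 FPKM in CTRL and cKO (log2 fold change 0.29, adjusted p = 0.113, limma). *Hist1h1b*, which encodes H1.5, had means of 3.49 and 3.36 FPKM, and *Hist1h1e*, which encodes H1.4, had 1.36 and 1.47 FPKM. None of these was called, although *Hist1h1a* passed without cKO replicate 3 (0.39, adjusted p = 0.0472, limma). The spans of *Hist1h1e* and *Hist1h2be* overlap by 496 bases on the same strand. Their transcripts share a stretch of 209 bases, and reads within it cannot be told apart.

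Of the 9 H2A genes tested only *Hist1h2ac* (ENSMUSG00000069270, chromosome 13 from 23681467 to 23683948, minus strand) was called. It measured 1.58, 1.53 and 1.72 FPKM in CTRL and 0.818, 0.773 and 0.693 FPKM in cKO libraries, on 32 to 82 reads. The groups did not overlap, with a log2 fold change of -0.57 (SE 0.08, adjusted p = 0.00168, limma) and a mean 52.8% lower by FPKM. Every cKO library was below 1 FPKM, so the gene reached the test only through CTRL. *Hist3h2a*, which lies within *Trim17* on the same strand, measured 2.69, 2.25 and 2.65 against 2.19, 2.02 and 1.73 FPKM. Its groups did not overlap either, but its log2 fold change of -0.25 missed the threshold (adjusted p = 0.0625, limma). It passed after rescaling each library to the same sum (-0.26, adjusted p = 0.0491, limma) and after removal of the trend with gene length (-0.30, adjusted p = 0.0302, limma). *Trim17* was at most 0.126 FPKM. *Hist1h2ao*, with the highest level of the class, had means of 7.79 and 8.04 FPKM in CTRL and cKO, and *Hist1h2ae* of 3.94 and 4.64 FPKM. The remaining ones had means between 1.03 and 2.01 FPKM in either group, with log2 fold changes of 0.46 for *Hist1h2ak*, 0.08 for *Hist2h2ac*, 0.05 for *Hist1h2ai*, -0.22 for *Hist1h2ab* and -0.23 for *Hist1h2ag*. All of these had overlapping groups, and *Hist1h2ak* passed the test without cKO replicate 1 (0.72, adjusted p = 0.0209, limma).

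H2B held 3 called genes, in both directions. *Hist1h2bg* (ENSMUSG00000058385, chromosome 13 from 23571396 to 23572013, plus strand) measured 12.7, 10.01 and 9.19 FPKM in CTRL and 5.88, 6.30 and 6.26 FPKM in cKO libraries, on 68 to 156 reads. All cKO libraries were below all CTRL libraries (log2 fold change -0.69, SE 0.11, adjusted p = 0.00291, limma). *Hist1h2bj* (ENSMUSG00000069300, chromosome 13 from 22043214 to 22043676, plus strand) went the other way, with 3.58, 6.25 and 5.51 FPKM in CTRL and 9.23, 8.05 and 8.24 FPKM in cKO libraries. Its groups did not overlap (log2 fold change 0.66, SE 0.16, adjusted p = 0.0187, limma), but without cKO replicate 1 it was no longer called (adjusted p = 0.0614, limma). *Hist1h2bn* (ENSMUSG00000095217, chromosome 13 from 21754123 to 21754503, plus strand) measured 0.924, 1.79 and 2.74 FPKM in CTRL and 0.561, 0.432 and 0.846 FPKM in cKO libraries. The lowest CTRL and the highest cKO library nearly met, on 3 to 20 reads each, and its call (log2 fold change -0.76, adjusted p = 0.0428, limma) was lost when any library but CTRL replicate 1 was left out, with adjusted p up to 0.110. The call was also lost with no filter on low values. Every cKO library was below 1 FPKM, so *Hist1h2bn* reached the test only through CTRL.

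The gene with the highest level in H2B did not pass the test. *Hist1h2bc* (ENSMUSG00000018102, chromosome 13 from 23684199 to 23692908, plus strand) measured 24.0, 26.8 and 24.1 FPKM in CTRL and 26.8, 19.5 and 23.1 FPKM in cKO libraries, with overlapping groups and a 95% interval of the log2 fold change from -0.38 to 0.14. *Hist2h2be*, on chromosome 3, had means of 3.14 and 3.57 FPKM (log2 fold change 0.15), *Hist3h2ba* of 3.53 and 4.26 FPKM (0.16) and *Hist1h2bb* of 3.76 and 3.46 FPKM (-0.11). The log2 fold changes of *Hist1h2bl*, *Hist1h2bk*, *Hist1h2bh* and *Hist1h2bm* were 0.21, 0.14, 0.00 and -0.04, with means of 1.35 to 2.64 FPKM. *Hist3h2ba* passed without cKO replicate 3 (0.47, adjusted p = 0.00880, limma) and *Hist2h2be* without CTRL replicate 2 (0.26, adjusted p = 0.0339, limma). Of the 8 H2B genes that were not called, 5 had values above 0 and 3 below.

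Class H3 held 2 of the rises. *Hist1h3g* (ENSMUSG00000099517, chromosome 13 from 23535422 to 23535951, plus strand) measured 3.13, 3.32 and 2.46 FPKM in CTRL and 4.43, 4.76 and 6.08 FPKM in cKO libraries (log2 fold change 0.62, SE 0.13, adjusted p = 0.00885, limma). *Hist1h3c* (ENSMUSG00000069310, chromosome 13 from 23744973 to 23745602, minus strand) measured 5.03, 3.60 and 4.05 FPKM in CTRL and 7.71, 7.57 and 5.71 FPKM in cKO libraries (log2 fold change 0.61, SE 0.13, adjusted p = 0.0118, limma). In both, every cKO library was above every CTRL library, by means 71.5% and 65.6% higher. *Hist1h3e*, at 3.11 and 3.42 FPKM, had a narrow interval of the log2 fold change, from -0.07 to 0.28. *Hist1h3d* had means of 1.60 and 1.12 FPKM (log2 fold change -0.31, adjusted p = 0.154, limma). *Hist1h3i*, *Hist1h3h* and *Hist1h3a* had log2 fold changes of 0.22, 0.13 and 0.01, and in the last of these cKO replicate 2 stood apart, at 5.14 FPKM against 2.50 and 2.62 FPKM in the other two. Without that library the value of *Hist1h3a* on the log2 scale was -0.25 (adjusted p = 0.0405, limma).

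In H4, *Hist1h4i* (ENSMUSG00000060639, chromosome 13 from 22040636 to 22041362, minus strand) held most of the class. It measured 55.1, 58.9 and 63.7 FPKM in CTRL and 74.8, 68.5 and 72.4 FPKM in cKO libraries, on 754 to 1018 reads. The groups did not overlap, and the mean rose from 59.2 ± 4.34 to 71.9 ± 3.16 FPKM (SD, n = 3 each). The log2 fold change was 0.28 (SE 0.06, adjusted p = 0.0101, limma). The other 9 H4 genes tested encode the same or nearly the same protein, and none was called. Values on the log2 scale were above 0 for 5 of them (*Hist1h4m* 0.64, *Hist1h4f* 0.45, *Hist1h4j* 0.23, *Hist1h4c* 0.16 and *Hist1h4a* 0.03) and below 0 for 4 (*Hist1h4k* -0.44, *Hist1h4n* -0.35, *Hist1h4h* -0.32 and *Hist1h4d* -0.24). Their means were 0.914 to 4.82 FPKM. *Hist1h4m*, with the highest of these values, had a 95% interval from -0.26 to 1.54, since its cKO libraries read 0.930, 3.96 and 3.48 FPKM. Leaving out 1 library brought 4 of these 9 past the threshold: *Hist1h4m* without cKO replicate 1 (1.07, adjusted p = 0.0164, limma), *Hist1h4d* without the same library (-0.35, adjusted p = 0.0494, limma), *Hist1h4k* without cKO replicate 2 (-0.76, adjusted p = 0.0134, limma) and *Hist1h4n* without CTRL replicate 1 (-0.49, adjusted p = 0.0310, limma).

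The 26 genes under a mean of 1 FPKM were not tested. Of these, 7 had no read in any library: *Hist1h2aa*, *Hist1h2ba*, *Hist2h2aa1*, *Hist2h2aa2*, *Hist2h2bb*, *Hist2h3b* and *Hist2h3c1*. *Hist1h2aa* and *Hist1h2ba* are known as testis histones, and *Hist2h2aa1* and *Hist2h2aa2* are copies whose transcripts share 528 bases without a difference, so a level of 0 does not show that these copies are silent. The other 19 had means up to 0.900 FPKM and at most 76 reads in any library. They were *Hist1h1d* and the testis H1 gene *Hist1h1t*, the H2A genes *Hist1h2ad*, *Hist1h2af*, *Hist1h2ah*, *Hist1h2an*, *Hist1h2ap* and *Hist2h2ab*, the H2B genes *Hist1h2be*, *Hist1h2bf*, *Hist1h2bp*, *Hist1h2bq* and *Hist1h2br*, the H3 genes *Hist1h3b*, *Hist1h3f* and *Hist2h3c2*, and the H4 genes *Hist1h4b*, *Hist2h4* and *Hist4h4*.

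Summed over all genes of a class, without a filter on low values, histone levels per gene length were compared by class. The H1 sum was 78.5, 82.8 and 84.8 FPKM in CTRL and 67.2, 68.2 and 63.4 FPKM in cKO libraries, 19.2% lower by means, and 34.0% lower without *H1f0*. The H3 sum was 21.7, 20.51 and 22.6 FPKM in CTRL and 26.3, 31.7 and 23.4 FPKM in cKO libraries, and the H4 sum 75.8, 82.4 and 87.7 against 96.4, 91.6 and 93.2 FPKM. In these 3 classes the groups did not overlap, H1 being lower and H3 and H4 higher in cKO. For 54.0% of all genes tested the groups did not overlap either, and the sums themselves were not tested. The size of the H3 gap rested in part on cKO replicate 2: the log2 ratio of the H3 means was 0.33 with all libraries and 0.20 without that library. The H2A sum (25.0 to 28.5 against 23.1 to 31.6 FPKM) and the H2B sum (58.6 to 66.0 against 55.3 to 66.6 FPKM) overlapped. Over all 68 genes the sums overlapped too, with means of 274 ± 9.76 and 273 ± 10.5 FPKM (SD, n = 3 each). Without *Hist1h1c* the H1 sums were 49.9 ± 2.38 and 48.2 ± 3.03 FPKM, without *Hist1h3c* and *Hist1h3g* the H3 sums were 14.4 ± 1.44 and 15.04 ± 4.00 FPKM, and without *Hist1h4i* the H4 sums were 22.8 ± 1.77 and 21.8 ± 1.14 FPKM. Each of these remainders overlapped between groups. The genes left out were called genes, chosen after the values were seen, so this overlap is no test of the other genes in each class.

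**Figure D3:**
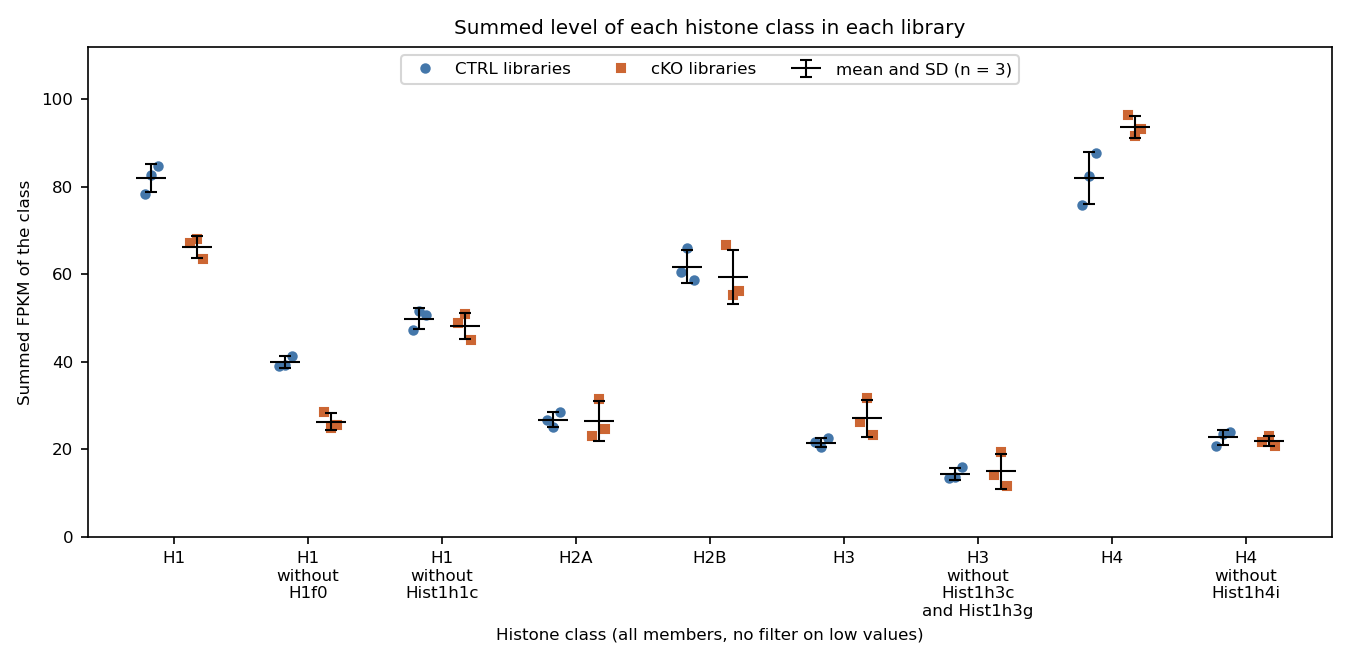
Summed FPKM of each histone class in each CTRL (circles) and cKO (squares) library, with the mean and SD of 3 libraries, also after leaving out the named genes. The groups are apart for H1, H3 and H4 and overlap once *Hist1h1c*, *Hist1h3c* with *Hist1h3g*, or *Hist1h4i* is left out.

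Within a class the shares of single genes also shifted. *H1f0* made up 51.3% of the H1 sum in CTRL and 60.2% in cKO, and *Hist1h1c* 39.2% and 27.2%. In H2B, *Hist1h2bc* held 40.5% and 38.9%, *Hist1h2bg* 17.2% and 10.3%, and *Hist1h2bj* 8.29% and 14.3%. *Hist1h2bg* was above *Hist1h2bj* in each CTRL library and below it in each cKO library. *Hist1h4i* held 72.2% of the H4 sum in CTRL and 76.7% in cKO. In H2A and H3 no gene held more than 30.5% in either group, and *Hist1h2ao* and *Hist1h3c* led.

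H2A and H2B genes often lie head to head with a shared stretch of promoter between their start sites. Of 13 such pairs of histone genes within 1000 bases, 6 had both genes tested, all of them an H2A with an H2B gene. In *Hist1h2ae* and *Hist1h2bg*, whose starts are 175 bases apart (the window printed above), the log2 fold changes were 0.18 and -0.69. In *Hist1h2ac* and *Hist1h2bc*, 250 bases apart, they were -0.57 and -0.12, in *Hist1h2ag* and *Hist1h2bj*, 269 bases apart, -0.23 and 0.66, and in *Hist1h2ak* and *Hist1h2bn*, 295 bases apart, 0.46 and -0.76. In each of these 4 pairs 1 gene was called and its partner was not. The remaining pairs, *Hist2h2ac* with *Hist2h2be* and *Hist1h2ai* with *Hist1h2bl*, had no called gene. The difference between partners itself was tested on log2(FPKM + 1) in an exact permutation test over the 6 libraries, two-sided. It changed by 0.87 for *Hist1h2ae* against *Hist1h2bg*, 1.22 for *Hist1h2ak* against *Hist1h2bn* and -0.45 for *Hist1h2ac* against *Hist1h2bc*, each with exact p = 0.1, the smallest that 3 libraries against 3 can give (0.2 adjusted over the 6 pairs). For *Hist1h2ag* against *Hist1h2bj* it was -0.89 (exact p = 0.2, adjusted 0.3). With 3 libraries against 3 this test could not reach 0.05 in any pair, so it leaves undecided whether the balance of partners changed.

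**Figure D4:**
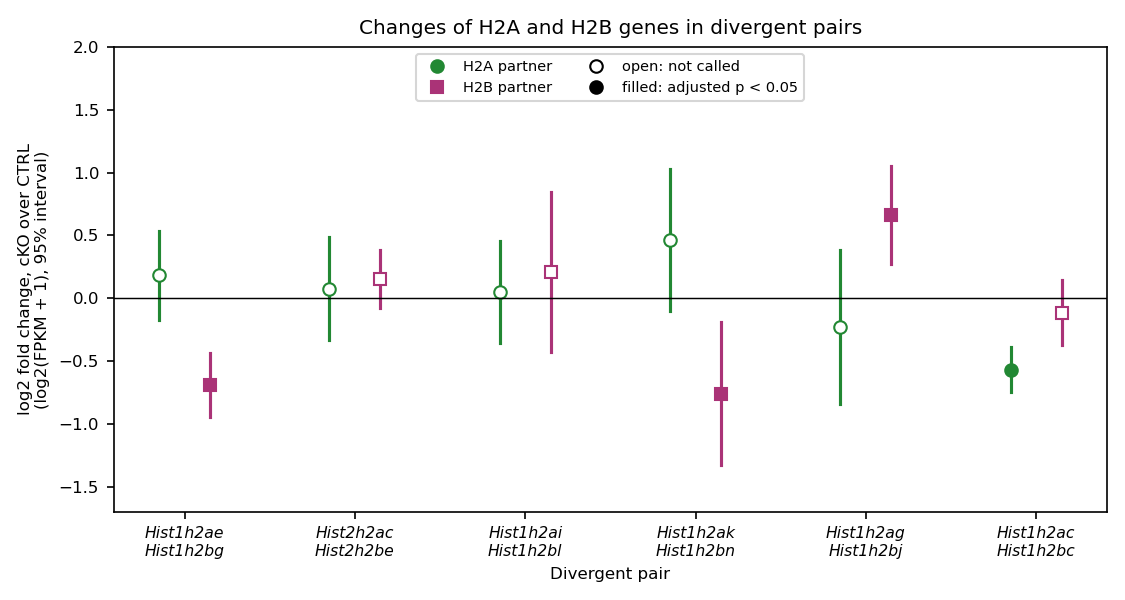
Log2 fold change (cKO over CTRL, on log2(FPKM + 1)) with 95% interval for the H2A (circles) and H2B (squares) gene of each divergent pair with both genes tested, filled where called. In 4 of 6 pairs 1 partner is called and the other is not.

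The error of a histone gene followed the reads behind it. The 42 genes had a median of 34.2 recovered reads a library, against 607 for all genes tested. The SE of the log2 fold change had a median of 0.17 in the 38 genes under 10 FPKM and 0.06 in the 4 above. In the 38, the variance between replicate read numbers was 1.86 times their mean (median), where counting alone gives a ratio of 1 on average. Of the 37 histone genes with under 100 reads a library 6 were called (16.2%), and of all 1616 genes tested with under 100 reads 24.6% were called. Of the 5 histone genes from 100 reads, *Hist1h1c* and *Hist1h4i* were called and *H1f0*, *Hist1h2bc* and *Hist2h2be* were not, and 43.0% of 9936 genes in that range were called. In the genes with few reads, changes smaller than these errors allow were not detectable at this depth.

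**Figure D5:**
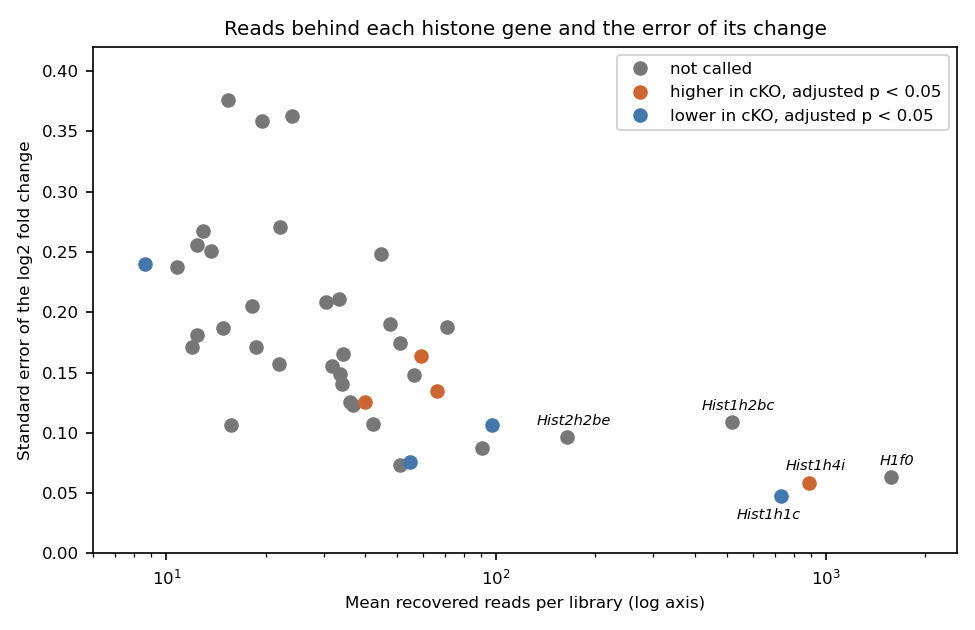
SE of the log2 fold change against mean recovered reads a library (log axis) for the 42 histone genes, called genes in colour. The 5 named genes with over 100 reads have an SE of at most 0.11, while genes with fewer reads reach 0.38.

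Near copies limit what a value can be assigned to. The 8 called genes each share at least 1 stretch of 100 bases with another histone gene of the list, over 52.1% of such windows in *Hist1h2bn*, 44.9% in *Hist1h2bg*, 40.1% in *Hist1h2bj*, 37.1% in *Hist1h3g*, 28.4% in *Hist1h3c*, 15.1% in *Hist1h4i*, 7.68% in *Hist1h2ac* and 5.07% in *Hist1h1c*. *Hist1h2bg* and *Hist1h2bc* have 305 bases in common without a difference. How reads that match several copies were counted is not given in the sources used here, so *Hist1h2bn*, *Hist1h2bg* and *Hist1h2bj* are the least certain and *Hist1h1c* and *Hist1h2ac* the most distinct of the 8. Of the 42 genes tested, 12 share over 50% of their windows and 7 share none.

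Some gene models run on past the stem-loop, as a polyadenylated histone transcript would. In 18 of the 42 genes the model goes more than 100 bases beyond the stem-loop, or beyond the stop where none was found. They include all 4 genes from 10 FPKM, with 1 gene called higher and 3 lower (median log2 fold change 0.02, median level 2.76 FPKM). Among the 24 genes with shorter models 3 were called higher and 1 lower (median log2 fold change 0.06, median level 2.57 FPKM). The models of the genes tested have a median of 536.5 bases, against 3692.5 bases for all genes tested. In position, 54 of the 68 genes lie on chromosome 13 between bases 21715763 and 23934851, and the 8 called genes are all among them, as are 37 of the 42 genes tested.

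The machinery around histone genes gave mixed counts. Of 11 genes of histone gene transcription tested, 1 was higher and 2 lower (median log2 fold change -0.06), where 19.9% of all genes tested were higher and 20.6% lower. *Ccne1*, whose product cyclin E1 activates CDK2 at S phase entry, was higher (0.35, adjusted p = 0.00538, limma), while *Nfya*, a subunit of the CCAAT-binding factor, was lower (-0.31, adjusted p = 4.08e-04, limma), as was *E2f1* (-0.24). *Npat*, the coactivator of histone genes, had 3.11, 3.25 and 3.28 FPKM in CTRL and 2.93, 2.72 and 2.85 FPKM in cKO libraries (-0.14, adjusted p = 0.0828, limma). Of 17 genes of histone mRNA 3' processing, 6 were higher and 1 lower (median 0.12), with *Mif4gd*, which binds SLBP, at 0.34, the Sm protein genes *Snrpe* and *Snrpf* at 0.27 and 0.26, and the scaffold gene *Sympk* at -0.23. *Slbp* itself measured 23.3, 21.4 and 24.4 FPKM in CTRL and 22.5, 21.7 and 22.8 FPKM in cKO libraries, with overlapping groups and a fold change of -0.04 on the log2 scale (adjusted p = 0.553, limma). Sm proteins also serve splicing.

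Of 10 histone variant genes outside the clusters 7 were called, 3 higher and 4 lower in cKO LSKs (median log2 fold change -0.01). Among all genes tested 40.5% were called, 19.9% higher and 20.6% lower. *Cenpa*, the H3 variant of centromeres, was higher (0.44), as were *H2afj* (0.34) and *H2afz*, which encodes H2A.Z (0.28), at 517 to 657 FPKM. *H2afy*, which encodes macroH2A1, went from 315 to 330 FPKM in CTRL down to 228 to 239 FPKM in cKO libraries (-0.46, adjusted p = 7.53e-05, limma). *H2afx*, which encodes the H2A.X of DNA damage signalling, was at 265 to 270 against 229 to 245 FPKM (-0.17, adjusted p = 0.00437, limma). Of 23 histone chaperone genes 6 were higher and 6 lower, near the 19.9% and 20.6% of all genes tested, with *Ipo4* at 0.36, *Chaf1a*, a subunit of the replication-coupled assembly factor CAF-1, at -0.33, *Ubn1* at -0.31 and *Tonsl* at -0.27.

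The phases of the cell cycle were read from lists of other genes. Of 43 S phase genes tested 24 were lower and 4 higher in cKO LSKs (median log2 fold change -0.17), where 20.6% of all genes tested were lower and 19.9% higher. Their summed levels were 1822 to 1843 FPKM in CTRL and 1667 to 1677 FPKM in cKO libraries. The replication genes *Pold1*, *Lig1* and *Dnmt1* fell by 0.47, 0.39 and 0.37 on the log2 scale, and *Ung* by 0.49. Of 22 G2/M genes 5 were higher and 4 lower (median -0.01), shares near the 19.9% and 20.6% of all genes tested, with *Ube2c* at 0.37, *Ccnb1* at 0.32 and *Cdc20* at 0.24, and *Top2a* at -0.36. The core histone sum (H2A, H2B, H3 and H4) was 185, 194 and 197 FPKM in CTRL and 212, 210 and 197 FPKM in cKO libraries, with the third cKO library within the CTRL range. The part of polyadenylation in the histone values was not tested.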

How the data were processed

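RNA-seq of 6 LSK libraries was used, 3 CTRL and 3 cKO. The deposited values are FPKM, fragments that the authors scaled to the length of each gene and to library size. The submitters' processing notes name HISAT2 2.0.5 and the mm10 build, while the counting program and annotation are not given in the sources used here. Column names matched sample titles. Multiplying FPKM by gene length and dividing by a step fitted for each library gave whole reads (within 0.1) for 100% of values in each library. Floors from reads cover counting error only.

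Genes from a mean of 1 FPKM upwards were tested on log2(FPKM + 1) with limma 3.58.1 (R 4.3.3), lmFit and eBayes with a trend, two-sided, with Benjamini-Hochberg adjustment over all genes tested. The pseudocount of 1 makes the change of low genes look smaller. No p was adjusted over the histone genes alone. Transcript models came from GENCODE M21, where all 68 genes had the same start and end, and promoters from RefSeq. Python 3.11.15 with pandas 2.3.3, numpy 2.4.6 and matplotlib 3.10.9 did the rest.

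The histone genes, the other gene lists and the alternatives were chosen with earlier results of these data known. Every histone gene from a mean of 1 FPKM was named. Of each other list at most 4 called genes with the largest changes were named, and *Slbp*, *Npat*, *H2afx*, *Myh9* and *Ly6a* whatever their values. Some cell type markers under a mean of 1 FPKM were also named. Poly I:C was given in 2 doses by the sample descriptions, which the study's methods give differently.

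The alternatives were a pseudocount of 0.1, no filter or a filter at 5 FPKM, other scalings, other moderation, a replicate block, leaving out each library, voom on the recovered reads, removal of trends with gene length and GC content, and leaving out replacement and testis histones.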

Additional observations from a re-analysis of the deposited data

How the results depend on the processing

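Of the 8 called histone genes, *Hist1h1c*, *Hist1h2bg* and *Hist1h2ac* were called under every alternative that tested them, and *Hist1h2bn*, with at most 20 reads a library, under 9 of 18. *Hist1h3c* was called under 18 of 19, *Hist1h4i* under 17 of 19, *Hist1h3g* under 17 of 18 and *Hist1h2bj* under 15 of 19. The number called higher fell from 4 to 1 without moderation of the variance (*Hist1h3g*) and to 1 with a replicate block after removal of the length trend (*Hist1h3c*). The number called lower was 2 with a filter at 5 FPKM, which left 8 histone genes tested. Under the other settings 3 to 6 were higher and 3 to 6 lower. The median log2 fold change of the histone genes, 0.04, was 0.088 with a pseudocount of 0.1, 0.13 with voom and -0.025 with the filter at 5 FPKM. It was -0.080 after removal of the trend with gene length, with or without the block, and -0.085 after removal of the GC and length trends, so its sign depends on the processing and the cause was not tested. *Hist1h3a*, at 0.01, was -0.25 without cKO replicate 2 (adjusted p = 0.0405, limma) and ranged from -0.25 to 0.15 when each library was left out. With a replicate block alone 5 histone genes were higher, among them *Hist1h1a* (0.29, adjusted p = 0.0403, limma), and 4 lower. *Hist3h2a* was also called lower after rescaling to the same sum and after removal of the length trend or the GC and length trends (adjusted p = 0.0491, 0.0302 and 0.0318, limma), *Hist1h4n* after removal of these trends (0.0331 and 0.0339), and *Hist1h2ab* and *Hist1h3d* with the block after removal of the length trend (0.0310 and 0.0477). Libraries with the same number did not deviate together (correlations -0.0046, -0.011 and -0.026), and none correlated best with its own number. These values show no pairing, but with 3 libraries a group they cannot exclude one. The log2 ratios of the class sums moved by less than 1 SD between replicates under each scaling and with each library left out, but that of H3 (0.33) ran from 0.20 without cKO replicate 2 to 0.43 without cKO replicate 3, and that of H2A changed sign (-0.17 to 0.071). Depth limits the genes under 100 reads, and poly(A) selection limits what all these values cover.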

Other observations

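A pseudogene outside the 68 genes, *Hist1h2al* (ENSMUSG00000091383, chromosome 13 from 51202727 to 51203065, minus strand), was chosen after its values were seen. It measured 2.37, 4.18 and 3.69 FPKM in CTRL libraries, on 16, 25 and 24 reads, and had no read in any of the 3 cKO libraries. Its CTRL mean was 7.04 times the highest floor of 3 reads in a cKO library. Whether it shares sequence with other histone copies was not checked. *Hist1h2aj*, the pseudogene of the chromosome 13 cluster, measured 0.714, 0.806 and 0.296 FPKM in CTRL and 1.37, 1.87 and 0.763 FPKM in cKO libraries, and *Hist3h2bb-ps* 0.541, 0.854 and 0.784 against 0.459, 0.354 and 0 FPKM. Neither reached the mean of 1 FPKM needed for the test.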
